A study of Mus musculus with 36 samples.

Results

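Mouse embryos heterozygous for Tet1 whose brains were scored inHB were compared with normal (norm) heterozygous embryos of the same maternal diet, by 5-methylcytosine (5mC) in single brains at E11.5. The comparison takes 6 of the 36 libraries of the series. The inHB group holds TP36.4, TP38.7 and TP36.6, and the norm group holds TP36.2, TP38.3 and TP41.2. They were chosen by diet, genotype and phenotype: all dams ate 30 ppm folic acid (FA), and all 3 norm titles end in norm. TP36.6 is titled KO but is listed as HET in the study's sample table, so the counts of called tiles, promoters and CpGs are also given without it. The labels do not spell out inHB, and the study's table lists these embryos with a brain malformation.

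All 6 embryos carried the Tet1tm1Koh allele on the inbred 129S6 congenic background, came from matings of HET with HET, and shared the 30 ppm diet, which also contained 1% of the antibiotic succinylsulfathiazole. The number after TP is that of the timed pregnancy, so it marks the litter. Litter 36 gave TP36.4, TP36.6 and TP36.2, all labelled female. Litter 38 gave TP38.7 and TP38.3 and litter 41 gave TP41.2, all labelled male. The inHB group thus holds 2 females and 1 male, and the norm group 1 female and 2 males. Whole brain was taken, from the front of the forebrain to the caudal hindbrain, so a smaller share of methylated cells and a lower level in every cell cannot be told apart.

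TET1 is a dioxygenase that oxidises 5mC as a step towards its removal. Its known place of action is at CpG-rich promoters and other regulatory DNA, where loss of the enzyme lets methylation accumulate. Folate carries methyl groups to homocysteine, which yields methionine and then S-adenosylmethionine, the methyl donor of the DNA methyltransferases. The tissue at the junction of midbrain and hindbrain is patterned by an organiser that secretes FGF8 and WNT1. The question of the comparison was whether malformed and normal brains of the same genotype and diet differ in 5mC.

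Reduced representation bisulfite sequencing after oxidation reads 5mC alone, at CpGs near MspI and TaqI cuts. The 6 libraries held between 34 and 61.8 M CpG calls, with 39.3 to 61.8 M in the inHB group and 34 to 46.6 M in the norm group. Methylation was summed over 1 kb tiles with at least 3 CpGs covered by 5 or more reads in all 6 libraries. A tile was called where the quasi-binomial test gave an adjusted p under 0.05 and the group means differed by at least 10 percentage points.

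Of 90296 tiles tested, 30 were called lower in inHB, which is 0.0332% of the tested tiles, and 6 were called higher, which is 0.00664%. The lower tiles include introns of Kif5c, a kinesin heavy chain that carries cargo along axons, and the promoter of Mkrn3, an imprinted gene expressed from the paternal copy. The higher tiles include the promoter of Spaca1, a protein of the sperm acrosome, and a tile near the start of Chst2, a sulfotransferase that acts on carbohydrate chains. The reference sequence around the measured CpGs of 5 of these tiles is printed here because the results turn on how single CpGs within them moved. It is the plus strand of GRCm38.p6 from RefSeq, and CpGs measured in all 6 embryos are in capitals. Where a tile is longer, the stretch with the most CpGs at which the groups do not overlap is shown.
Gm30173 intron, chr3:52527328-52527416: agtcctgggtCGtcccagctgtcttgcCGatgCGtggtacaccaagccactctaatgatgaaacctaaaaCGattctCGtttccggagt
Kif5c intron, chr2:49629382-49629483: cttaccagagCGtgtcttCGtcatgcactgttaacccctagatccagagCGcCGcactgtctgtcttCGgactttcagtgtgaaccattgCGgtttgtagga
Mkrn3 promoter, chr7:62419992-62420231: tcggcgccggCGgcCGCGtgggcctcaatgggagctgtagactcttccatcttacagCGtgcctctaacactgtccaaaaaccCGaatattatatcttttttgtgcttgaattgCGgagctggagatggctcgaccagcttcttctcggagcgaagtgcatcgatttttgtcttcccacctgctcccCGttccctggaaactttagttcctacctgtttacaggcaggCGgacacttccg
Spaca1 promoter, chr4:34049993-34050141: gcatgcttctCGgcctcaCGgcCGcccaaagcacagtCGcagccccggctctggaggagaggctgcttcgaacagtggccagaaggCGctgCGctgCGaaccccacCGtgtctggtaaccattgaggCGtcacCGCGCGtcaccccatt
Chst2 tile, chr9:95405243-95405375: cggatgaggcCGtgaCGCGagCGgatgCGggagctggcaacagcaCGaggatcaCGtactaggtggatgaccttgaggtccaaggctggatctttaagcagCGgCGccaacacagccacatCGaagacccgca

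These stretches show how single CpGs differed, as a description of tiles chosen for their difference. In Gm30173 all 5 CpGs were lower in every inHB embryo than in any norm embryo, by 31.6 to 49.9 points between group means. All 6 CpGs of the Kif5c stretch behaved alike, with differences of 15.3 to 30.8 points. At Mkrn3, 10 of 11 CpGs of the tile had a lower inHB mean and 4 did so without overlap. At Spaca1, 12 of 12 CpGs had a higher inHB mean, 6 of them without overlap. At Chst2, 9 of the 10 CpGs printed had a higher inHB mean, 5 of them without overlap, by up to 21.3 points. Those 10 lie 1358 to 1469 bases from the gene start, outside the 1 kb of its promoter. The other 17 CpGs of the Chst2 tile, 724 to 894 bases from the start, differed by 0 to 6.27 points, all with overlap. CpGs of 1 stretch share reads, so they are not separate measurements. In the plot of single CpGs, coverage runs from 6 to 66 reads per embryo.

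**Figure D1:**
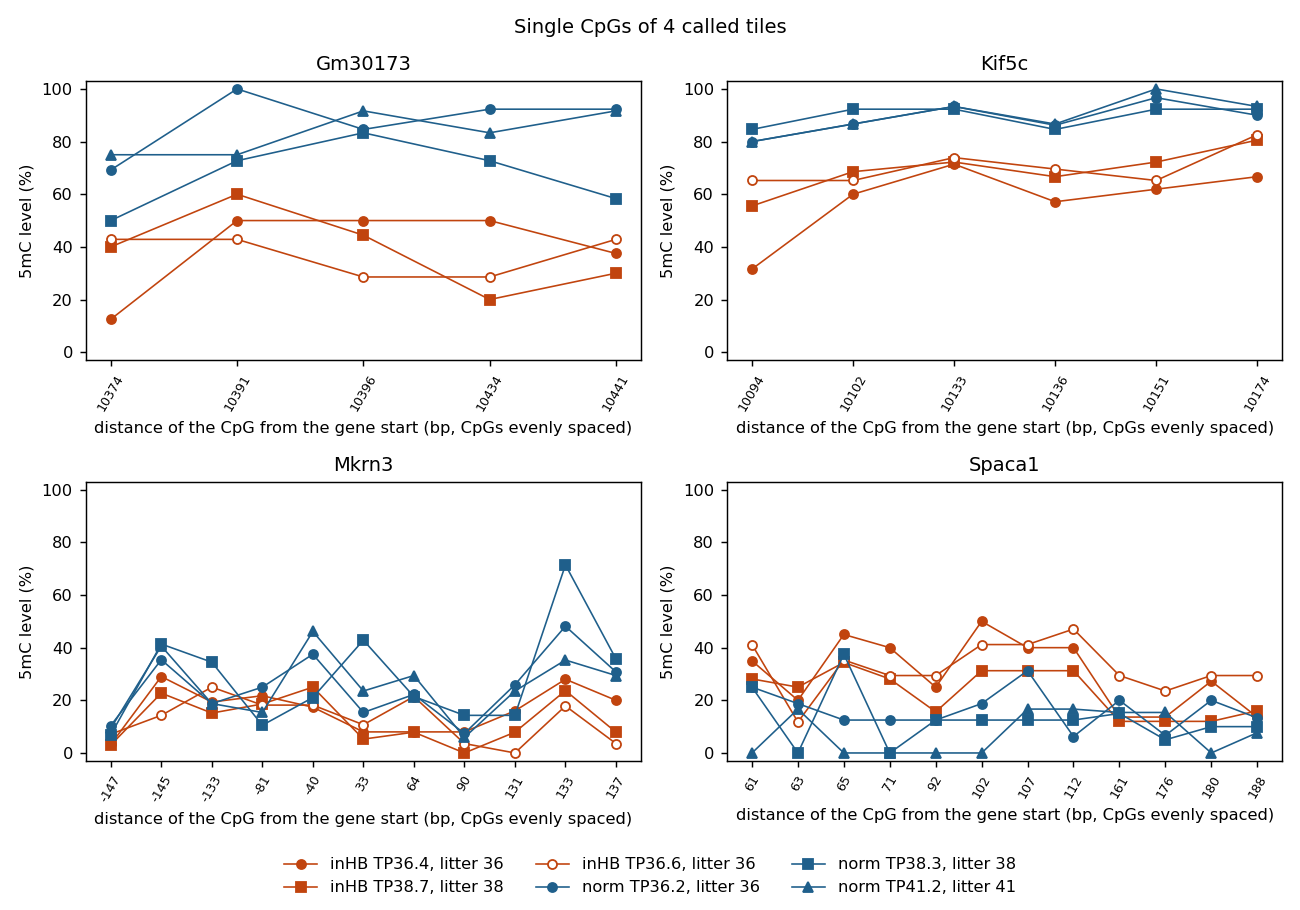
5mC level in percent at each measured CpG of the tiles of Gm30173, Kif5c, Mkrn3 and Spaca1, evenly spaced in order of distance from the gene start in base pairs, with a line for each embryo. The inHB lines lie below the norm lines at all 5 CpGs of Gm30173 and all 6 of Kif5c, and they cross norm lines at part of the CpGs of Mkrn3 and Spaca1.

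Before the genes are described, the labels were checked against the data. Over regions that the authors' lists give as hypermethylated in KO against WT at 3 ppm, made without these 6 libraries, TP36.6 stood at 39.6%. The 6 libraries spanned 39.6% to 41.82%, while 15 other KO embryos spanned 51.3% to 55.0% and 6 other HET embryos 41.1% to 42.6%, or from 41.79% without TP42.1. TP36.6 thus lay outside the KO range, and the ranges of the 6 and of the other HET embryos overlapped. The 9 WT embryos spanned 35.96% to 43.71%. Of these, TP41.3 of the 30 ppm norm group had 43.71% and TP50.1 of the 0.1 ppm diet 41.63%, as high as HET embryos, and the other 7 reached 38.84%.

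A CpG of Tet1 at chr10:62884019 gave a further reading of genotype. TP36.6 was 45% methylated there on 20 reads, with a 95% Wilson interval of 25.8% to 65.8% that covers counting error only. The other KO embryos ranged from 69.6% to 100%, with a median of 82.6%, and other HET embryos from 30% to 69.2%. TP36.4 and TP38.7 had 20% and 25.8%, and TP36.2, TP38.3 and TP41.2 had 8.33%, 23.5% and 28.6%. These 5 lay below the other HET embryos and within the WT range of 0% to 40%, on 14 to 31 reads each, so this CpG separates KO from the 6 embryos. The upper WT values were those of TP41.3 with 36.36% and TP50.1 with 40%, while the other 7 WT embryos were at or below 7.32%. TP41.3 and TP50.1 thus lay with HET in both readings, and values that rest on TP41.3 are given without it too. The share of chromosome X CpGs between 20% and 80% was 33.6% to 35.8% in the 3 embryos labelled female and 9.57% to 11.3% in the 3 labelled male, so the libraries matched their labelled sexes. Of the other 30 libraries, TP42.9 (KO inHB) and TP42.1 (HET norm) of the 3 ppm diet, labelled male, had 32.3% and 33.96%, as in females, and values that rest on them are also given without them.

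**Figure D2:**
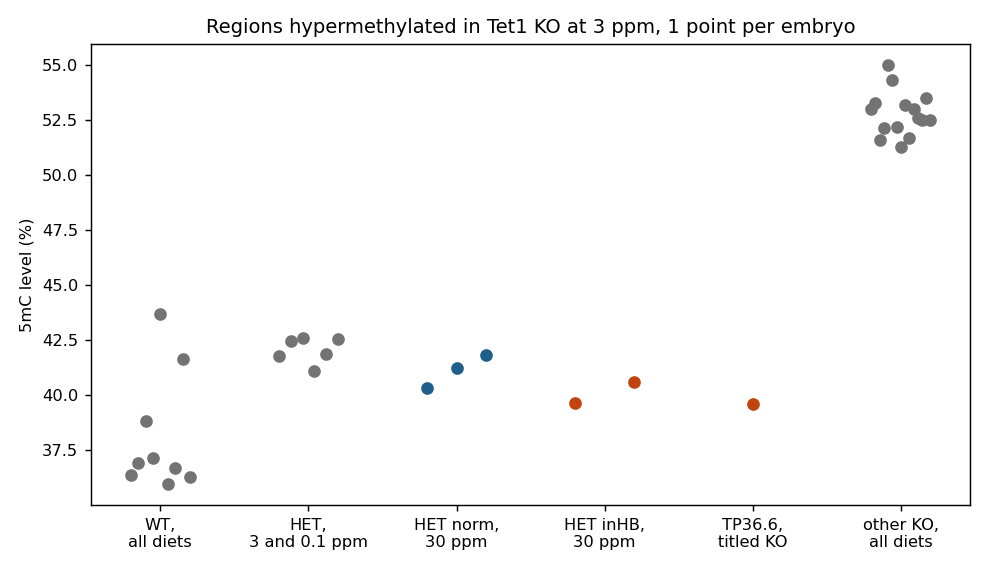
Mean 5mC level in percent over the regions listed as hypermethylated in Tet1 KO against WT at 3 ppm, 1 point per embryo, grouped by genotype and group, on an axis that does not start at 0. The library titled KO, TP36.6, sits at 39.6%, at the lower edge of the HET embryos, and below the KO embryos at 51.3% to 55.0%.

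The largest difference among the called tiles was in an intron of Gm30173, a predicted gene with no known function, at chr3:52527001-52528000. The inHB embryos TP36.4, TP38.7 and TP36.6 had levels of 40.0%, 38.8% and 37.1%, and the norm embryos TP36.2, TP38.3 and TP41.2 had 87.7%, 67.2% and 83.3%. All 3 inHB embryos were below every norm embryo, and the 3 inHB values lay close together. The difference was -40.8 points, from 79.4% ± 10.8 to 38.64% ± 1.43 (SD, n = 3), with an adjusted p of 5.69e-05 by the quasi-binomial test. It rests on 35 to 65 CpG calls an embryo, and the inHB libraries had fewer calls there, by 0.86 on the log2 scale, than the norm libraries after scaling to depth. The part of read number in this difference was not tested.

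Kif5c was measured in an intron at chr2:49629001-49630000, 9703 bases from the gene start. The inHB levels were 58.5%, 69.3% and 70.3%, and the norm levels were 88.8%, 89.7% and 90.0%. The norm embryos were almost alike and all lay above the inHB embryos. The group means were 66.04% ± 6.52 and 89.5% ± 0.62 (SD, n = 3), and the difference was -23.5 points with an adjusted p of 9.86e-06 by the quasi-binomial test. In WT embryos the tile had medians of 65.7% at 30 ppm and 69.0% at 3 ppm, and the highest WT embryo of 30 ppm, TP41.3, reached 76.8%, below every norm HET embryo of the comparison. Without TP41.3 the WT embryos of 30 ppm had 62.5% and 65.7%. HET embryos at 3 ppm had 78.9% (TP42.1), 80.0% and 60.1%. KO norm embryos had medians of 83.2% at 30 ppm and 78.7% at 3 ppm.

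Mkrn3 encodes a zinc finger protein of the makorin family, and its promoter is normally methylated on the maternal copy. The tile chr7:62420001-62421000 covers the gene start. Levels were 16.3%, 12.9% and 12.5% in inHB and 24.4%, 27.8% and 24.6% in norm. The groups did not overlap, and the difference of -11.7 points had an adjusted p of 0.00205 by the quasi-binomial test. WT embryos at 30 ppm ranged from 17.4% to 21.3%, between the groups, and without TP41.3 from 20.3% to 21.3%.

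The promoter of Meg3, a maternally expressed long noncoding RNA of the Dlk1 imprinted region, also fell, in the tile chr12:109541001-109542000 that it shares with Gm27596. The 3 inHB levels were 40.7%, 34.9% and 32.2%, and the 3 norm levels 48.5%, 52.9% and 41.304%. The groups stood apart by less than 1 point, between TP36.4 and TP41.2. The difference was -11.7 points, adjusted p 0.0133 by the quasi-binomial test over 24 CpGs.

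Piwil1, which binds piRNAs in the male germline, had a called tile 4524 bases from its start. Levels of 49.0%, 51.5% and 43.8% in inHB stood against 59.3%, 62.9% and 67.4% in norm, a difference of -15.1 points with an adjusted p of 0.00027 by the quasi-binomial test. The groups did not overlap. An intron tile of Piwil1 was lower by 13.7 points and an exon tile higher by 14.9 points, neither called.

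An intergenic tile at chr8:78139001-78140000, 31041 bases from the predicted gene Gm45288, was nearly unmethylated in inHB, at 4.71%, 6.49% and 8.84%. The norm embryos had 23.7%, 18.8% and 31.6%, and no value overlapped. The difference was -18.0 points and the adjusted p 8.64e-06 by the quasi-binomial test. WT embryos at 30 ppm ranged from 6.31% to 14.5%, with or without TP41.3. HET embryos at 3 ppm had 9.62% (TP42.1), 9.87% and 19.08%, so they overlapped the norm embryos there with or without TP42.1.

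Among the remaining lower tiles, Tenm3 and Sema6b belong to families that guide axons. At the Tenm3 intron tile the inHB mean was 16.7% and the norm mean 32.4%, with no overlap. The tile 6658 bases from Sema6b had means of 47.2% and 65.0%, again without overlap. Lmbrd1, which moves cobalamin out of lysosomes, had a tile 2630 bases away at 69.7% against 84.9%, where TP38.7 with 72.1% and TP38.3 with 74.5% differed little. Syk, a tyrosine kinase of immune receptors, had a tile 5173 bases away that was 20.9 points lower.

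Cd3eap, a subunit of RNA polymerase I, fell by 17.2 points in a tile 483 bases from its start. Slco3a1, an organic anion transporter, fell by 19.6 points at an inner transcript start, 48780 bases from the gene start. Introns of Baz2b, a bromodomain protein, of Srbd1 and of Slc39a11, a zinc transporter, were lower by 18.7, 14.7 and 13.8 points. The tile in an intron of Zfp385b was lower by 28.6 points, that of Wdr70 by 22.9 points and that of Rsrc1 by 19.4 points.

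The remaining called lower tiles lay in or near genes with Gm, Rik or AC symbols, but for a tile near Olfr784, an olfactory receptor gene. That tile, 3366 bases from a transcript start, was 13.6 points lower with an adjusted p of 0.00213 by the quasi-binomial test. An intron tile of C530008M17Rik was 19.4 points lower, without overlap, with an adjusted p of 0.0133 by the same test. The tile 8272 bases from Gm29107 had levels of 64.8%, 23.4% and 65.8% in inHB and 95.7%, 73.9% and 98.2% in norm. The difference of -37.95 points stands beside an SD of 24.2 within inHB and was -23.99 without TP38.7, and the whole tile is masked as repeat. Its adjusted p of 6.86e-38 by the quasi-binomial test rests on the dispersion shared by all tiles, which does not take in that spread. Tiles near A630001O12Rik and Gm37491 were 25.2 and 23.5 points lower, the first by 15.3 without TP36.2, and those near Gm3760 and AC140469.1 20.6 and 20.1 points lower, the last with overlapping groups.

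Of the higher tiles at genes of known function, that of Spaca1 differed most. In the promoter tile chr4:34050001-34051000 the inHB levels were 29.8%, 23.9% and 32.4%, and the norm levels 16.5%, 11.8% and 8.00%. All inHB embryos lay above all norm embryos, and the difference of 16.6 points had an adjusted p of 0.00411 by the quasi-binomial test. HET embryos at 3 ppm had a median of 30.3%, as high as inHB, with 27.1% and 30.3% without TP42.1, and the WT embryos at 30 ppm had 10.9% and 8.82%, close to norm, and 26.8% in TP41.3. KO embryos were higher still, with medians of 64.4% at 30 ppm and 75.8% at 3 ppm.

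Chst2 was measured in the tile chr9:95405001-95406000, 722 bases from the gene start, over 27 CpGs. Levels were 39.8%, 36.58% and 33.2% in inHB and 21.5%, 25.2% and 26.6% in norm. The groups did not overlap. The difference was 12.1 points, adjusted p 0.00401 by the quasi-binomial test.

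L3mbtl1, a chromatin protein related to the polycomb group, had a tile at an inner transcript start, 4529 bases from the gene start, with 76.8%, 82.9% and 71.2% in inHB and 57.4%, 59.7% and 82.7% in norm. Here 1 norm embryo, TP41.2, was as high as the inHB embryos, so the groups overlapped although the tile was called at 10.4 points. The remaining higher tiles were the Gm7094 promoter with 21.2 points, an intergenic tile 183412 bases from Gm18234 with 15.4 points and a tile 28671 bases from Cox7a2l, an assembly factor of the respiratory chain, with 10.3 points.

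Another 4 higher tiles came next in the ranking but were not called. They were an exon of Ehd2, a membrane protein of caveolae, an intron of Rtkn2, a tile at transcript starts of Thbs3 and Mtx1 and the promoter of Gm43852. Their adjusted p ran from 0.0521 to 0.0553 by the quasi-binomial test. At Thbs3, an extracellular matrix protein, the levels were 25.8%, 24.6% and 25.0% in inHB and 11.7%, 12.5% and 7.76% in norm, which did not overlap.

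**Figure D3:**
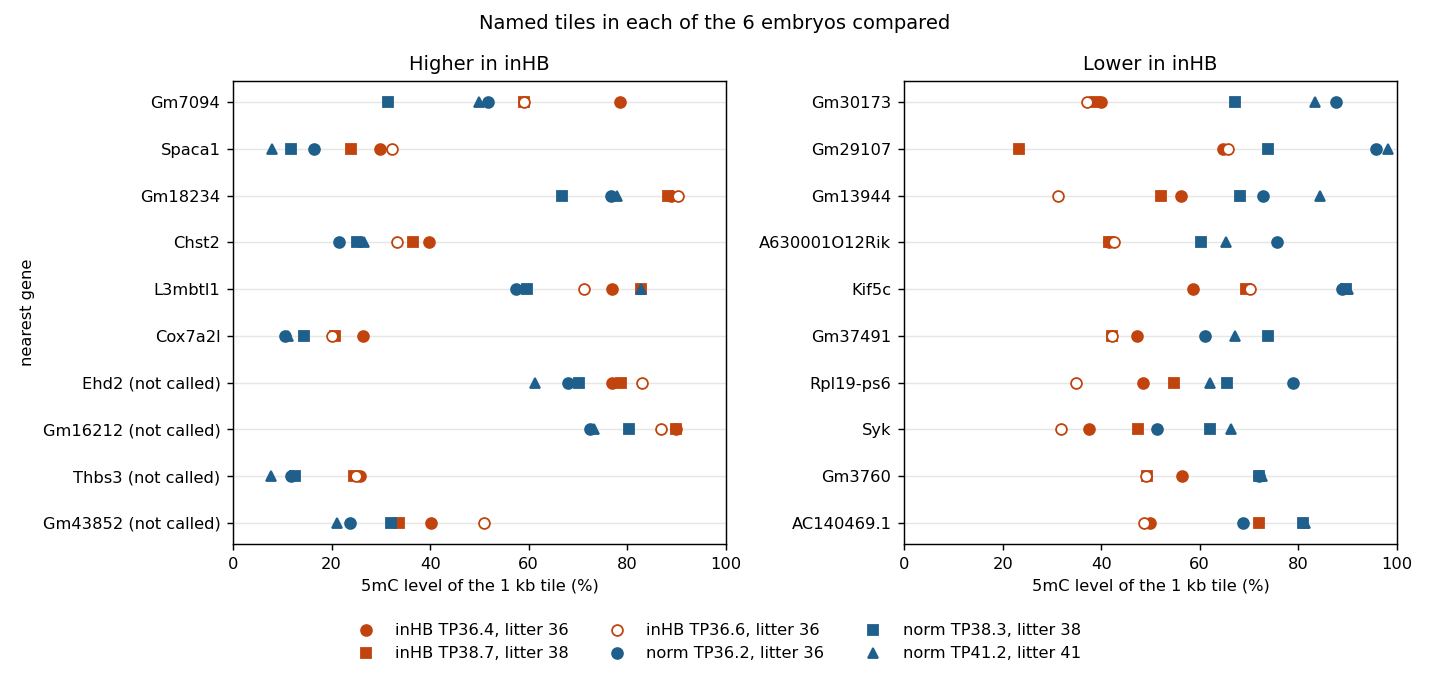
5mC level in percent of each of the 6 embryos at the named tiles, 10 higher and 10 lower in inHB, labelled by nearest gene. At Gm30173 the 3 inHB embryos lie between 37.1% and 40.0% and the norm embryos between 67.2% and 87.7%, and at L3mbtl1 norm embryo TP41.2 lies among inHB.

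The called tiles were placed by gene feature, where a tile within 1 kb of any annotated transcript start counts as promoter. Of the 30 lower tiles, 6 lay in promoters, 0 in exons, 11 in introns and 13 between genes. These are 0.0370%, 0%, 0.0407% and 0.0421% of the tested tiles of each kind, beside 0.0332% of all. Of the 6 higher tiles 4 lay in promoters, which hold 16200 of the 90296 tested tiles, and 2 between genes, which hold 30905. The median norm level was 72.2% for the lower tiles, 34.4% for the higher tiles and 86.2% for all tested tiles. Groups stood apart without overlap in 28 of the 30 lower and 5 of the 6 higher tiles. Over all tested tiles every inHB embryo lay below every norm embryo in 7.46% and above in 3.04%, counts that the choice of called tiles uses as well.

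Sequence and read number went with part of the tiles. Lower tiles had a median of 22.5 CpGs in 1000 bases, higher tiles 26, and all tested tiles 16. At least 50% of the sequence was masked as repeat in 6 of the 30 lower tiles, which is 20% beside 13.5% of all tiles. In 9 of the 30 lower tiles, or 30%, all inHB libraries had fewer reads, scaled to depth, than all norm libraries, beside 6.6% of tested tiles. At the tile near Olfr784 this was largest, with reads fewer by 1.78 on the log2 scale. The part of read number in the calls was not tested.

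The number of called tiles depended on the analysis. Without TP36.6, 3 tiles were called higher and 21 lower, and 16 of the 36 tiles were called again. The groups then stood apart in 7.00% of all tiles with inHB above and 11.9% below. With an embryo fewer, groups stand apart more often by number alone, so these shares do not show a sharper separation. Every tile took a shared dispersion of 1.62, and when tiles of low spread were also tested, so that each tile's own spread entered, 3 of the 36 stayed called: those near Gm3760, Gm45288 and Kif5c. With limma on log2 ratios of methylated to unmethylated reads none was called, with a lowest adjusted p of 0.934, and 318 higher and 1031 lower tiles had an unadjusted p under 0.05 with 10 points or more. With a dispersion estimated from all 14 libraries of the 30 ppm diet none was called among 55516 tiles, with a lowest adjusted p of 0.123, beside 154 and 598 such tiles.

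In every fit that left out 1 library 6 tiles were called, those near Gm29107, Gm22295, Gm3760, Gm45288, Kif5c and Gm30173, all lower in inHB. The other 30 lost the call without at least 1 library. A630001O12Rik lost it in 5 of the 6 fits, Gm37491 in 4 and Tenm3 in all 6. The promoter tile of Mkrn3 was lost without TP38.7, with an adjusted p of 0.0921, and without TP38.3, with 0.0623. Spaca1 was lost without TP36.6, with 0.0772, without TP38.3, with 0.131, and without TP41.2, with 0.175. Chst2 was lost without TP36.6, with 0.351, and also without TP36.4 or TP36.2. At a coverage of 10 the Spaca1 difference was 7.79 points, with an adjusted p of 0.970. The Meg3 tile was lost without any of TP36.6, TP38.7, TP36.2 and TP38.3, with 0.149 to 0.351, and Piwil1 without TP41.2, with 0.135. L3mbtl1 was lost without TP38.7, TP36.2 or TP38.3, with 0.294 to 0.663, and its difference was 5.81 points without TP36.2 and 18.5 without TP41.2. Gm7094 was lost without TP36.4, TP38.3 or TP41.2, with 14.6 to 14.7 points left, and without TP36.6, with 24.4 points and an adjusted p of 0.0519. With labelled sex as a covariate 8 tiles were called higher and 28 lower, and the calls at Gm7094, Syk, Slco3a1, AC158763.1 and AC140469.1 were lost, with 0.0680 to 0.474. All p here are from the quasi-binomial test.

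Looser limits gave a lower share of 1.48% and a higher share of 0.42% of tiles, counting all tiles with an unadjusted p under 0.05 and 10 points or more, which are 1335 and 379 tiles, and 1217 and 499 without TP36.6. The lower share was 1.84% in introns, 1.56% between genes, 1.20% in promoters and 1.01% in exons. The higher share was 0.466%, 0.447%, 0.377% and 0.334%. The median difference over all tested tiles was -1.01 points, and 60.3% of tiles had a lower mean in inHB. An unadjusted p under 0.05 was found for 5.6% of tiles.

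Litter could be set against the pattern, since litters 36 and 38 each hold inHB and norm. All 36 called tiles differed in the same sense in both litters, and 29 of the 30 lower tiles had every inHB embryo on the same side in both. The tiles were called on these same embryos, so this direction was largely fixed by their choice. Over all tested tiles, inHB lay below norm throughout both litters in 16701 and above in 12641. At Kif5c the inHB minus norm difference was -24.4 points in litter 36 and -20.4 in litter 38, and at Gm30173 it was -49.1 and -28.5. Across all 90296 tiles the differences of the pair of litters had a Pearson correlation of 0.00238, and they had the same sign in 50.13%. This is a description across tiles, which share libraries and depth.

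With litter as a replicate block, 7 tiles were called higher and 22 lower, and 20 of the 36 tiles were called again. TP41.2 is alone in its litter, so it tells nothing of the difference in that fit. The tiles of Kif5c, Gm30173, Mkrn3, Meg3, Piwil1, Baz2b and Chst2 kept their call, with 0.00878 for Chst2 and 0.00904 for Mkrn3. Spaca1 lost it with an adjusted p of 0.0885, Cox7a2l with 0.0770 and Sema6b with 0.0513. Calls were lost as well at Lmbrd1, Syk, Tenm3, Cd3eap, Slco3a1, Srbd1, the introns of Zfp385b and Slc39a11 and the tiles near Gm37491, AC140469.1, AC158763.1, Gm7993 and Gm1401, with adjusted p of 0.138 to 0.661. All are from the quasi-binomial test.

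**Figure D4:**
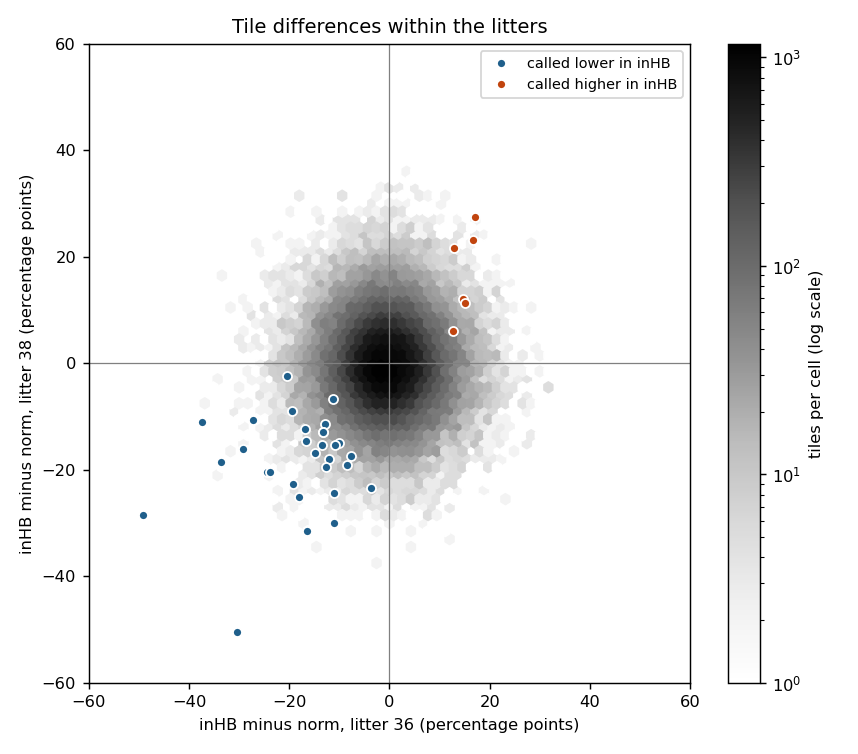
Difference inHB minus norm in percentage points within litter 38 against that within litter 36, for all tested tiles as shaded counts on a log scale and the 36 called tiles as points. Called tiles lie in the quadrants of the same sign, while the density of all tiles has no slope, with r of 0.00238.

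At promoters as a whole, 1 kb to either side of each gene start, 0 of 5675 tested promoters were called higher and 0 lower, so 0% in both directions, with a lowest adjusted p of 0.150 by the quasi-binomial test. At an unadjusted p under 0.05 and 10 points, 22 were higher and 51 lower, shares of 0.388% and 0.899%. The groups did not overlap in 3.15% of promoters with inHB above and 7.47% below. Without TP36.6 the test called 4 higher and 3 lower, 30 and 46 passed the unadjusted limits, and the groups stood apart in 7.03% and 11.9%. These last shares again rest on an embryo fewer, which raises them by number alone. With litter as a block 2 higher and 1 lower were called.

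The 5 higher promoters that came first were Spaca1, Mir6921, Pfn4, a member of the profilin family, Gm43852 and Gm7094, by 10.3 to 21.2 points. The Spaca1 promoter was 26.8% in inHB and 13.4% in norm, adjusted p 0.315 by the quasi-binomial test. The 5 lower promoters were Gm16437, Mfap4, a protein of elastic fibres, Gm13657, Gm26841 and Inhbe, a subunit of activin, by 11.2 to 17.4 points. At Inhbe the mean was 75.4% in inHB and 92.8% in norm, with an adjusted p of 0.483. None of the 10 was called.

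Single CpGs gave few calls. Of 904463 tested, 3 were higher (0.000332%) and 8 lower (0.000885%). In Gnb5, a G protein beta subunit of neurons, the CpG at chr9:75333757 was 72.7%, 69.2% and 77.3% methylated in inHB on 22, 26 and 22 reads, and 100% in every norm embryo on 20 to 31 reads. At Chl1, a cell adhesion molecule of neurons, the CpG at chr6:103649167 was 13.7% in inHB and 31.4% in norm, a difference of -17.7 points. A CpG within Pik3cd, a PI3 kinase subunit of blood cells, 4961 bases from the gene start and 942 from an inner transcript start, was 53.7 points lower.

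The single CpG with the smallest p by the quasi-binomial test, though not the largest difference, was in Gm10801 at chr2:98662629 and 25.2 points higher in inHB. It was covered by 350 to 499 reads in inHB and 757 to 1015 in norm, so read number moved with the level, and its part was not tested. Of the 11 called CpGs, 4 lay in called tiles near Olfr784, Gm3760 and Gm18234. Without TP36.6, 1 CpG was higher and 3 lower, and with litter as a block 0 were called in either direction by the quasi-binomial test, beside 1210 higher and 1725 lower at an unadjusted p under 0.05 with 10 points or more.

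Genes that pattern the junction of midbrain and hindbrain did not stand out at their promoters. Of 58 listed genes, 50 had a measured promoter, and all 50 were below 10% in all 6 embryos. The promoter of Fgf8 spanned 0.757% to 1.21% and that of Wnt1 0.403% to 1.90%. The highest value was 9.35%, at Pax8 in TP36.4. Pax8 was the only one of them tested, with 6.92% in inHB and 5.82% in norm and an adjusted p of 0.993 by the quasi-binomial test. Forebrain patterning genes gave the same picture, with 27 of 27 measured promoters below 10%, as did neural tube closure genes with 58 of 58. Over all genes 14268 of 20849 measured promoters were below 10% in all 6 embryos, so low levels are not particular to these lists.

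Tiles of the midbrain and hindbrain genes were read against the background. Of 157 tested, 0 were called, 0 were higher and 4 were lower at an unadjusted p under 0.05 and 10 points, which is 2.55% beside 1.48% of all tiles. They include introns of Meis2 and Pax2 and a tile within Dusp6, with adjusted p values of 0.820 to 0.874 by the quasi-binomial test. In Pax2, a transcription factor of that junction, the levels were 67.4%, 52.6% and 51.1% in inHB and 70.7%, 74.5% and 79.3% in norm. In Dusp6, a phosphatase that limits FGF signalling, the tile lay 2770 bases from the gene start and 360 from an inner transcript start, outside the promoter that was below 10%. Its levels were 25.0%, 26.4% and 20% against 34.7%, 35.38% and 33.8%. The groups did not overlap at the tiles of Meis2, Pax2 and Dusp6. Other lists had a larger share of lower tiles at these limits. It was 2 of 52 or 3.85% for forebrain patterning, with 0 higher. For mesenchyme and neural crest markers it was 2 of 55 or 3.64%, with 1 higher.

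WNT signalling genes had 59 measured promoters, of which 55 were below 10% in all embryos and 4 were tested, 0 called. Wnt8a had 65.97% in inHB and 58.4% in norm, Ctnnb1, the effector beta-catenin, 64.9% and 69.7%, Wnt5a 6.76% and 9.70%, and the antagonist Dkk4 78.3% and 80.9%. These levels are those around the outermost annotated start of each gene, and they do not tell of inner transcript starts, as of Ctnnb1. At the unadjusted limits 8 of 327 tiles were lower, which is 2.45%, and 2 higher, which is 0.612%, beside 1.48% and 0.42% of all tiles. The largest was within Tcf7l1, a repressor of WNT targets, 135254 bases from its start and 681 from that of Gm38320, with 23.6%, 46.5% and 39.4% in inHB and 66.3%, 68.1% and 56.8% in norm. The groups did not overlap there, and the adjusted p was 0.0669 by the quasi-binomial test.

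Folate and one-carbon genes showed no called promoter or tile. Of 42 measured promoters, 30 were below 10% in all embryos and 9 were tested, 7 lower and 2 higher in inHB, with a median difference of -1.36 points beside -0.888 over all promoters. Among the lower ones Bhmt2 and Dmgdh share the same 22 CpGs and reads, at -1.20 points, so they are not separate measurements. Tyms, which makes thymidylate, had 13.7% in inHB and 17.4% in norm, Aldh1l2, a mitochondrial folate enzyme, 10.1% and 7.80%, Cubn, an uptake receptor, 21.6% and 23.8%, and Mat1a, a methionine adenosyltransferase, 81.3% and 83.2%. Slc46a1, the proton-coupled folate transporter, had a promoter of 2.03%, 4.96% and 2.75% in inHB and 3.45%, 4.36% and 3.18% in norm. Those values overlapped, and the promoter varied too little to be tested. According to the paper, these libraries do not cover a CpG island shore at this promoter. There its targeted sequencing found more methylation in KO than in WT embryos under excess FA. The levels given here thus do not tell of that shore. None of 151 tiles near these genes passed an unadjusted p under 0.05 with 10 points.

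Genes of DNA methylation and demethylation had 24 measured promoters, 19 of them below 10%, and 5 were tested with 0 called. Dppa3 was 69.3% in inHB and 76.8% in norm, the maintenance methyltransferase Dnmt1 83.5% and 86.5%, Dnmt3l 62.7% and 65.3%, and Zbtb38, which binds methylated DNA, 43.68% and 41.26%. The Tet1 promoter was 90.9%, 95.7% and 90.0% in inHB and 87.1%, 96.3% and 100% in norm, over 3 CpGs with 16 to 47 reads. The groups overlapped, and the difference of -2.25 points had an adjusted p of 0.998 by the quasi-binomial test. Promoters here surround the outermost annotated start of a gene. The levels at Dnmt1 and Tet1 thus do not tell of any inner transcript start of these genes.

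Imprinted genes carry methylation on 1 parental copy. Of 19 measured promoters of this list 13 were tested, 9 lower and 4 higher in inHB, with a median difference of -2.23 points beside -0.888 over all promoters and 0 called. The largest differences were at Peg10 with 48.0% in inHB and 58.1% in norm, Slc38a4 with 41.398% and 50.2%, Peg3 with 43.9% and 50.9% and Meg3 with 38.33% and 44.9%. Of 104 tiles near these genes, 8 were lower at the unadjusted limits, which is 7.69% beside 1.48% of all tiles, and 1 was called, at Meg3. The other 7 lay near Zdbf2, Nnat, Nespas and Gnas, Peg10, Zrsr1, Slc38a4 and once more Meg3. At 4 of the 8 tiles the groups overlapped, as at Zrsr1, where TP36.6 with 57.2% exceeded TP38.3 with 44.5%. No tile was higher at these limits. All tested tiles had a median norm level of 86.2%, and the share near imprinted genes was not compared with tiles of similar level.

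Genes listed as germline genes silenced by methylation had 17 measured promoters, 0 of them below 10% in all embryos, and 13 were tested. Expression was not measured, and some promoters had low levels, with norm means of 13.4% at Spaca1 and 33.9% at Dazl. Of 66 tiles near the listed genes 1 was called higher, at Spaca1, and 1 lower, near Piwil1. At the unadjusted limits 2 were higher and 2 lower, 3.03% in either direction beside 0.42% and 1.48% of all tiles. The whole Spaca1 promoter was not called, and Tdrd1 had 60.1% in inHB and 66.1% in norm, Zfp42 64.4% and 70.3% and Ddx4 72.5% and 68.1%. Of the 13, 7 were lower and 6 higher, with a median difference of -0.418 points beside -0.888 over all promoters.

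Promoters of cell type markers were read as well, although methylation does not measure expression. Over all genes 14268 of 20849 measured promoters were below 10% in all 6 embryos, so a low level does not tell cell types apart. All 13 measured promoters of neural progenitor markers and all 23 of neuronal differentiation genes were below 10% in all 6 embryos. For mesenchyme and neural crest markers this was 14 of 16, with Col1a1 tested at 11.52% in inHB and 8.45% in norm. For blood and endothelial markers it was 7 of 13. Of the 6 tested, 5 were lower in inHB, with a median difference of -6.29 points, beside 60.1% and -0.888 over all promoters, as at Pecam1 with 84.2% and 95.7%, Cx3cr1 with 65.8% and 74.4% and Tie1 with 65.7% and 74.2%. None was called, and the part of blood and vessel cells in the calls was not tested.

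Among neuronal differentiation genes, an intergenic tile near Hes5, a Notch target, had 29.2%, 26.0% and 35.37% in inHB and 17.5%, 14.3% and 10.8% in norm. Those groups did not overlap, and its adjusted p was 0.253 by the quasi-binomial test. Near Notch2 a tile had 42.3%, 57.01% and 67.8% against 76.1%, 66.7% and 88.3%, which overlap, adjusted p 0.160. These are 2 of the 4 tiles of 116 that passed the unadjusted limits, 1.72% in either direction. Among neural tube closure genes, 3 of 275 tiles were lower at those limits, in Shroom3, Celsr1 and Ptk7, and 2 higher, in Lrp6 and Gli3. The shares of 1.09% and 0.727% stand beside 1.48% and 0.42% of all tiles, and none was called.

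The mean level of 1445688 autosomal CpGs was close to equal. In inHB it was 40.033%, 40.203% and 39.697%, and in norm 40.029%, 40.457% and 40.931%. Norm embryo TP36.2 lay among the inHB embryos, and only TP36.6 lay below all norm embryos. The means of 39.98 ± 0.257 and 40.47 ± 0.451 (SD, n = 3) differed by -0.495 points, and by -0.270 without TP41.2, with a two-sided exact permutation p of 0.3, where 3 against 3 embryos cannot give less than 0.1. Within litter 36 the difference was -0.164 points and within litter 38 it was -0.255 points.

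By gene feature, the difference was -0.119 points in promoters, -0.539 in exons, -0.99 in introns and -0.939 between genes. Each had an exact permutation p of 0.2. By the level of the tile in WT embryos at 3 ppm, the difference was -0.0229 points below 10%, -0.928 from 10% to 30%, -1.61 from 30% to 70% and -0.853 above 70%, with exact permutation p of 0.8, 0.3, 0.2 and 0.2 before adjustment. Over regions hypermethylated in KO or HET at 3 and 0.1 ppm the differences were between -1.12 and -1.24 points, all with an exact permutation p of 0.2. Without TP41.2 the difference was -0.0694 points in promoters, -0.313 in exons, -0.535 in introns and -0.480 between genes. By level it was then -0.539 from 10% to 30%, -0.845 from 30% to 70% and -0.466 above 70%, and over the regions it lay between -0.639 and -0.821. Without TP36.6 it was -0.544 above 70%.

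**Figure D5:**
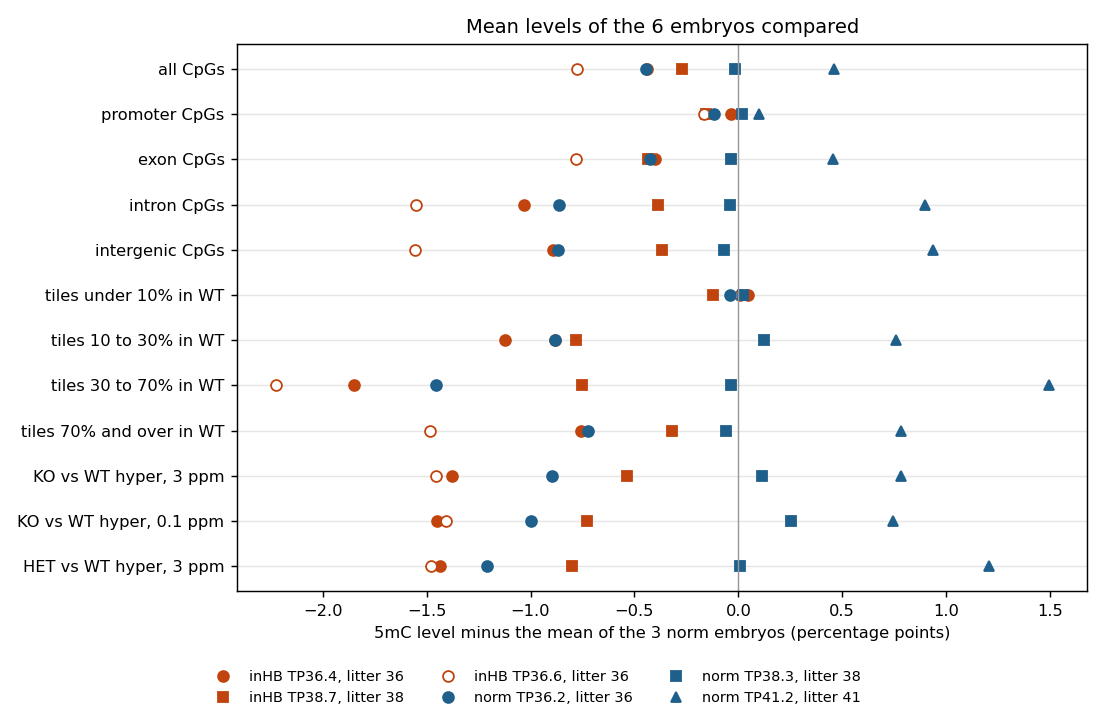
Mean 5mC level of each embryo minus the mean of the 3 norm embryos, in percentage points, over all autosomal CpGs, by gene feature, by level class in WT and over regions hypermethylated in Tet1 KO or HET, 1 point per embryo. Norm embryo TP36.2 lies among the inHB embryos in most rows, as in introns, where inHB levels span 71.4% to 72.6% and norm levels 72.1% to 73.9%.

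Levels in embryos outside the comparison were set beside the groups. Against the median of 14 norm embryos that are WT or HET of other groups, norm was nearer in 20 of the 30 lower tiles, which is 66.7%, beside 49.8% of 90227 tiles. The median distance from those embryos was -10.6 points for inHB and 7.02 points for norm at the lower tiles. At the 6 higher tiles norm was nearer in 3. TP35.2 is among the 14, although the study's sample table marks it as excluded. Without TP35.2, TP41.3 and TP42.1 together these counts were 19 of 30 and 4 of 6, and leaving out each alone gave 19 or 20 and 4. Since the tiles were chosen for their difference in the same embryos, both distances are a description.

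The KO embryos scored inHB offered a check in other embryos, 3 of them against KO norm of the same diet. Of the 25 lower tiles measured there, 11 were lower in KO inHB too, which is 44.0%, beside 49.4% of all tiles lower in HET inHB. At the higher tiles it was 3 of 5, beside 51.2%. Without TP42.9 it was 15 of the 25 lower tiles, which is 60%, beside 48.0%, and again 3 of 5 higher ones, so the count at the lower tiles rests on that embryo. The HET difference and the KO difference at 30 ppm themselves differed at 5 of 80311 tiles, which is 0.00623%, and at 14 tiles without TP36.6. KO inHB is only 1 embryo there, whose spread is taken from the other groups, so this test tells of that embryo and not of malformed KO embryos in general. The 5 tiles lie near Gm45288, Nhlh1, Jph3, Cacna2d2 and Zfp872, and their values stand in the closing section.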

How the data were processed

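The authors made the libraries from 100 ng of DNA of single brains and processed them with Trim Galore 0.6.10, Bismark 0.24.1 on mm10 and UMI-tools. At each CpG the deposited files hold a methylated fraction and a coverage count, made by the authors after duplicates were removed by molecular identifiers. Methylated counts were recovered as fraction times coverage. Files hold positions from 0, and 1 was added.

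Tiles of 1 kb, promoters of 1 kb to either side of a gene start (GENCODE vM21) and single CpGs were tested where at least 3 CpGs (1 for single CpGs) had a coverage of 5 or more in all 6 libraries and the SD of levels was at least 2 points. The gene start is the outermost annotated one, so the tested promoters leave out inner transcript starts further away. Tiles within 1 kb of any transcript start were placed in promoters. Methylated and unmethylated reads entered a quasi-binomial logistic model, with an F test, dispersion moderated as in limma 3.58.1 (R 4.3.3) and held at 1 or above, and Benjamini-Hochberg adjustment. Under that SD minimum, which leaves out tiles of low spread, the estimated dispersions varied no more than sampling gives, so the fit gave all tiles the same value. With no minimum SD they varied more than that, so the shared value depends on the minimum and does not show that tiles are alike in spread. Means per embryo were compared by a two-sided exact permutation test. Each group member is 1 embryo. With coverage of 14.1 to 25.2 reads per CpG, a level at 1 CpG is imprecise, and tiles are less so.

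Named tiles are up to 10 per direction, called tiles with the largest difference first, filled by smallest p among tiles whose groups and litters do not overlap. Promoters follow the same rule with 5. From each of the 12 gene lists, up to 4 tested promoters with the largest difference are named, and Slc46a1 and Tet1 in any case. Leaving out TP35.2, TP41.3, TP42.1 and TP42.9 was chosen after seeing the data. Some items under this rule are not reported here. Genes outside the rule are named where a count or tile called for it. The members and lists were chosen with earlier results of these data known. The TP number gives the litter, which pairs embryos where both phenotypes occur. Deviations of litter mates from their group means correlated at 0.0104, 3.04e-05 and 0.0222 across tiles. The authors' lists of differential regions hold positions alone, and 3 of them, made without these 6 libraries, were used as regions.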

Additional observations from a re-analysis of the deposited data

Results flagged for a closer look

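A test of the difference between the inHB minus norm difference of HET and that of KO embryos at 30 ppm singled out 5 of 80311 tiles, by the quasi-binomial test of the interaction with adjustment. KO inHB is 1 embryo, TP41.4, against TP41.8 and TP43.4, so its spread is assumed to be that of the other groups and the test tells of that embryo alone. Without TP36.6 the number was 14.

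In the tile near Gm45288 the HET difference was -18.0 points and the KO difference 19.2, and they differed by -37.2 points (adjusted p 0.00707). TP41.4 had 27.9% and the KO norm embryos 11.7% and 5.76%. At Nhlh1, a transcription factor of young neurons, the HET difference was 1.34 points and the KO difference -19.4, and they differed by 20.7 points (adjusted p 0.00707). All 6 HET comparison embryos lay between 3.86% and 6.72%, while TP41.4 had 17.4% and the KO norm embryos 36.79% and 36.77%.

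At an inner transcript start of Jph3, a junctophilin of neurons, 23378 bases from the gene start, the differences were -6.79 and 10.2 points, apart by -17.0 (adjusted p 0.00784), with 87.3% in TP41.4 and 72.2% and 82.0% in the KO norm embryos. In an intron of Cacna2d2, a calcium channel subunit, they were 2.06 and -26.98 points, apart by 29.0 (adjusted p 0.0413), with 12.6% in TP41.4 and 42.86% and 36.36% in KO norm. At the promoter of Zfp872, a zinc finger gene, they were -6.68 and 37.4 points, apart by -44.1 (adjusted p 0.0413), with 79.2% in TP41.4 and 46.4% and 37.3% in KO norm. Of the 5, the tile near Gm45288 was also called in HET alone.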

How the results depend on the processing

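Counts of called tiles, higher and lower in inHB, were 6 and 30. They were 2 and 22 at a coverage of 10, 0 and 3 with no minimum SD, 0 and 0 with the dispersion of 14 libraries and with limma, 1 and 10 at a minimum of 20 points, and 3 and 30 for tiles of 500 bp. Leaving out 1 library gave 3 to 12 higher and 18 to 54 lower. The most lower tiles came without TP36.2, the fewest without TP41.2, and the most higher tiles without TP38.7. Promoters gave 0 to 4 higher and 1 to 9 lower, and CpGs 1 to 3 and 3 to 19, the 19 without TP38.3. With no minimum SD CpGs gave 0 and 0. With the replicate block on litter, tiles gave 7 and 22, promoters 2 and 1 and CpGs 0 and 0. With that block and TP36.6 left out, tiles gave 5 and 20, with 11 of the 36 called again, and promoters gave 4 and 4. The difference in tiles below 10% in WT ran from -0.0638 to 0.0267 over embryos left out, with a change of sign without TP38.7. Of 98 values of 12 means 97 were lower in inHB. They are refits of the same 6 embryos and so not separate measurements, and their lowest exact permutation p was 0.2. The interaction gave 14 tiles without TP36.6. Of 270 values of the named tiles, 112 lost the call and 2 gained it, and of 134 of the named promoters 18 gained it. Where embryos and CpGs stayed the same the difference of means is the same by construction. The cause was not tested. Coverage, 3 embryos a group and 1 malformed KO embryo limit the precision.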
